A study of Rattus norvegicus with 6 samples.

Results

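Calm2 and Calm3, which encode calmodulin, and Camk2a, Camk2b, Camk2d and Camk2g, which encode the subunits of calcium/calmodulin-dependent protein kinase II (CaM kinase II), were followed in H9c2 cells after knockdown of the long non-coding RNA Tug1. These 6 genes were taken by symbol from the 40456 genes of the deposited count table, and all 6 passed the expression filter that left 14216 genes for testing. H9c2 is a rat cardiomyoblast line, labelled wild type and cardiomyocyte. In every library the cells had been differentiated over 5 days by daily 1 µM retinoic acid at 1% serum, and then received by lipofection, for 24 h, a gapmer built with locked nucleic acids at 25 nM, which is a short antisense strand that marks its target RNA for cleavage by RNase H. The control group (3 libraries) was given a negative control gapmer and the knockdown group (3 libraries) a Tug1 gapmer. The labels do not say whether replicates came from separate cultures, so p-values measure the spread between these libraries, which may be technical. Each group rests on a single gapmer sequence.

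The 2 oligonucleotides are shown because they are the only stated difference between the groups, and both are taken from the labels and written 5′ to 3′ in lower case.
Tug1 gapmer: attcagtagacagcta
negative control gapmer: gctcccttcaatccaa

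Calmodulin is a small calcium sensor that wraps around its target proteins once calcium is bound, and several unlinked genes encode the same protein. CaM kinase II is a multi-subunit enzyme that calcium-loaded calmodulin switches on and that stays partly active after it has phosphorylated itself. The delta and gamma subunits are the forms known from heart, alpha and beta are best known from brain, and beta is also found in skeletal muscle. Substrates in muscle include phospholamban, ryanodine receptors, L-type calcium channel subunits and class IIa histone deacetylases.

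The libraries held 12978548 to 13544337 counts, so that 1 CPM (the count scaled to library size with TMM factors) stood for 12.9 to 13.8 counts. Tug1 had 672 to 718 counts in controls and 152 to 165 after knockdown, a level of 22.0% of the control mean. Of the heart muscle markers Tnnt2 was present (349 CPM in controls), but Myh6, Myh7, Nkx2-5, Tbx5 and Ryr2 were at or under 3 counts in every library, whereas the skeletal muscle factor Myog averaged 275 CPM in controls against 486 CPM with the Tug1 gapmer. The summed level of 14 skeletal muscle markers was 1016 to 1024 CPM in controls and 1461 to 1554 CPM after knockdown. Among 11 tested, 8 were higher and 2 lower, where of all tested genes 30.8% were called higher and 30.9% lower. The 2 lower were the factor Myod1, from 59.7 to 47.8 CPM, and Myh1, from 42.9 to 25.3 CPM (group means). For 12 heart muscle markers the sums were 359 to 391 and 418 to 471 CPM, and for 6 smooth muscle markers 968 to 1063 and 1131 to 1289 CPM. The sums of 7 fibroblast markers, nearly all Col1a1 (21693 CPM in controls) and Col1a2 (15137 CPM), were 37284 to 38973 and 32340 to 35004 CPM, with 3 lower and 1 higher (Dcn, log2 fold change 0.57) among 6 tested. The sums of 12 neuron markers were 19.0 to 24.3 and 16.0 to 19.2 CPM. They held 2 called genes of opposite direction, since Tubb3 fell from 15.7 to 4.05 CPM (log2 fold change -1.96) and Map2 rose from 3.70 to 12.1 CPM (1.71), while Stmn2, Nefl, Nefm, Elavl4 and Gad1 had no count in any library. Endothelial markers summed to 3.02 to 4.47 and 2.81 to 3.91 CPM, and leukocyte markers to 3.22 to 5.42 and 6.74 to 9.02 CPM, with Ptprc at 0. The part of these shifts in the results on the 6 genes was not tested.

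Both calmodulin genes fell after Tug1 knockdown, Calm2 to 70.7% and Calm3 to 79.2% of the control level. Among the kinase genes Camk2g rose 1.92-fold, Camk2a fell to 80.5% of control, and Camk2d and Camk2b did not pass the test. With the quasi-likelihood test of edgeR and a threshold of 0.05 on the adjusted p, 4 of the 6 genes were called, 1 higher and 3 lower. Of all tested genes 61.7% were called, 30.8% higher and 30.9% lower, and 77.4% among the tenth of genes with the highest levels, to which Calm2 belongs. The share among the 6 is close to that of the whole table. The median log2 fold change (knockdown over control) of the 6 was -0.17, beside 0.00 for all tested genes.

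Calm2 was at 451, 446 and 448 CPM in the controls (replicates 1 to 3) against 321, 313 and 317 CPM in the knockdown libraries (also 1 to 3). Every knockdown library lay well below every control library, with little spread inside either group. The group means were 448 ± 2.83 and 317 ± 3.90 CPM (SD, n = 3). The fitted log2 fold change was -0.50, with SE 0.0417 and an edgeR adjusted p of 5.23e-10. In bulk RNA, fewer cells of a type and less RNA per cell cannot be told apart.

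Calm3 was at 124, 127 and 124 CPM in the controls (replicates 1 to 3) against 107, 91.1 and 98.5 CPM in the knockdown libraries (also 1 to 3). The groups did not overlap, although the knockdown libraries spread more widely than the controls. The means were 125 ± 1.66 and 98.9 ± 7.97 CPM (SD, n = 3). This gave a fitted log2 fold change of -0.34, with SE 0.0570 and an edgeR adjusted p of 2.14e-05. Groups failed to overlap for 65.6% of all tested genes. Calm2 and Calm3 encode the same protein from similar coding sequences, and the treatment of reads that match both was not given in the sources used here, so the split between them is uncertain.

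Summed over Calm2 and Calm3, the level was 575, 572 and 572 CPM in the controls (replicates 1 to 3) against 428, 404 and 416 CPM in the knockdown libraries (also 1 to 3). The sum after knockdown was 72.5% of control and did not overlap with it. It covers these 2 genes only and is not a measure of all calmodulin RNA. Of the summed counts, Calm2 held 78.2% ± 0.318 in controls and 76.2% ± 1.24 after knockdown (SD, n = 3), a difference of -1.97 percentage points. Within each library the log2 ratio of Calm2 to Calm3 counts was 1.86, 1.81 and 1.86 in controls and 1.58, 1.78 and 1.69 after knockdown. The groups did not overlap, but control replicate 2 and knockdown replicate 2 were close to each other. The exact permutation test (two-sided) gave p = 0.1, the smallest value that 3 against 3 libraries allow. Shares and ratios are of counts and not per length, so they compare groups and do not rank the genes by number of transcripts.

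**Figure D1:**
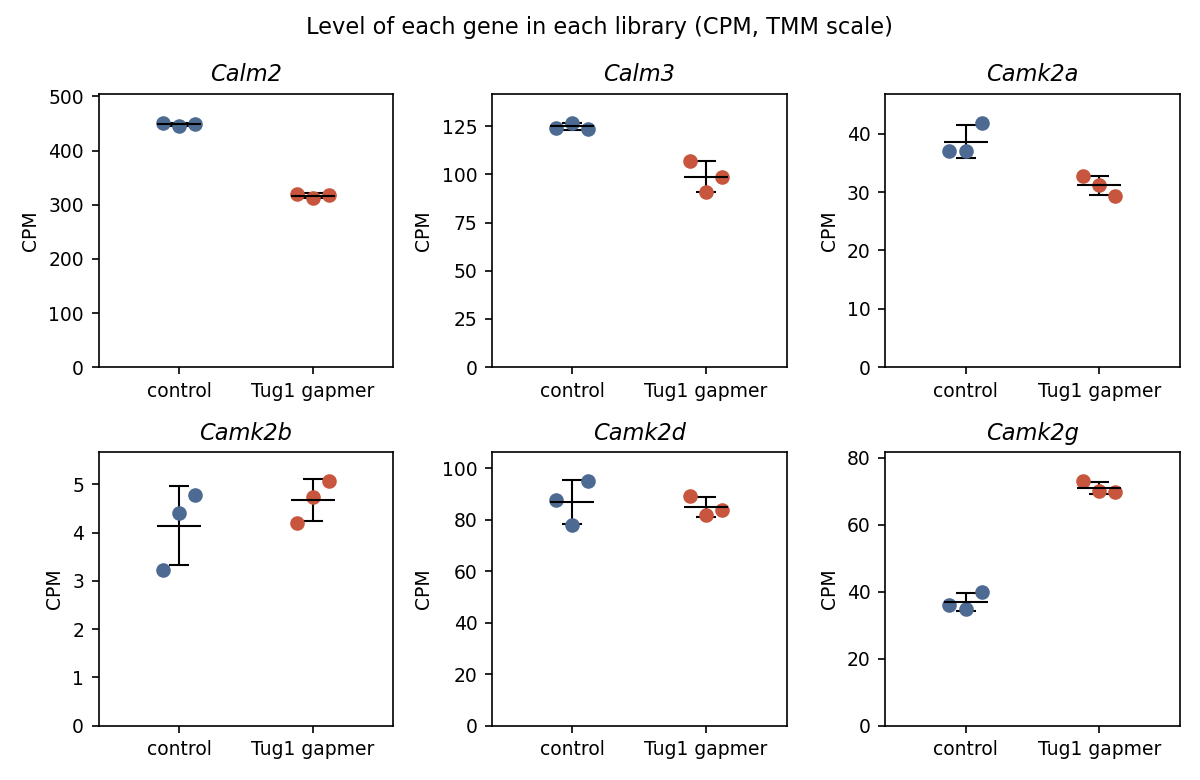
Level of each gene in CPM (y axis, from 0, a separate scale in each panel) in the 3 control and the 3 Tug1 gapmer libraries; points are libraries in replicate order, long bars group means and whiskers the SD. Calm2, Calm3 and Camk2a lie lower and Camk2g higher in all 3 knockdown libraries, while Camk2b and Camk2d overlap between groups.

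Camk2g encodes the gamma subunit. Its level was 36.0, 34.7 and 39.9 CPM in the controls (replicates 1 to 3) against 72.9, 70.0 and 69.6 CPM in the knockdown libraries (also 1 to 3). All 3 knockdown libraries were far above the controls, with a gap several times the range inside either group. The means were 36.8 ± 2.70 and 70.8 ± 1.81 CPM (SD, n = 3). The fitted log2 fold change was 0.94, with SE 0.0641, a 95% interval of 0.81 to 1.08 and an edgeR adjusted p of 1.84e-11. In absolute size this change was larger than that of 88.7% of tested genes.

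Camk2d encodes the delta subunit, the main form in heart. It was at 87.7, 78.0 and 94.9 CPM in the controls (replicates 1 to 3) against 89.0, 81.8 and 83.8 CPM in the knockdown libraries (also 1 to 3). The knockdown values all fell inside the range of the controls. The log2 fold change was -0.03 (SE 0.0641, 95% interval -0.17 to 0.10, edgeR adjusted p 0.676), so at this depth a change outside that interval was not seen on the TMM scale. Camk2d has the longest genomic span of the 6 genes and is longer than 97.1% of tested genes with a known span. With an offset that removes from each library the trend of level on genomic span, its log2 fold change was -0.38 (edgeR adjusted p 6.57e-06), past the threshold as lower. Its sign turned positive, without a call, with library totals in place of TMM (0.02) and without control replicate 3 (0.04).

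Camk2a encodes the alpha subunit. It was at 37.1, 37.0 and 41.9 CPM in the controls (replicates 1 to 3) against 32.8, 31.3 and 29.4 CPM in the knockdown libraries (also 1 to 3). The groups did not overlap, and the lowest control lay above the highest knockdown library. The means were 38.7 ± 2.78 and 31.1 ± 1.70 CPM (SD, n = 3). This gave a fitted log2 fold change of -0.31, with SE 0.0746 and an edgeR adjusted p of 9.45e-04. Camk2a had 389 to 543 counts per library.

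Camk2b, the beta subunit gene, had few counts, 42, 57 and 62 in the controls (replicates 1 to 3) against 58, 64 and 67 in the knockdown libraries (also 1 to 3). That is 4.14 ± 0.815 and 4.67 ± 0.432 CPM (SD, n = 3), with overlapping groups. The log2 fold change was 0.17 (SE 0.187, 95% interval -0.22 to 0.56, edgeR adjusted p 0.440), an interval that leaves room for a change in either direction. With the length offset the estimate was -8.65e-05.

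**Figure D2:**
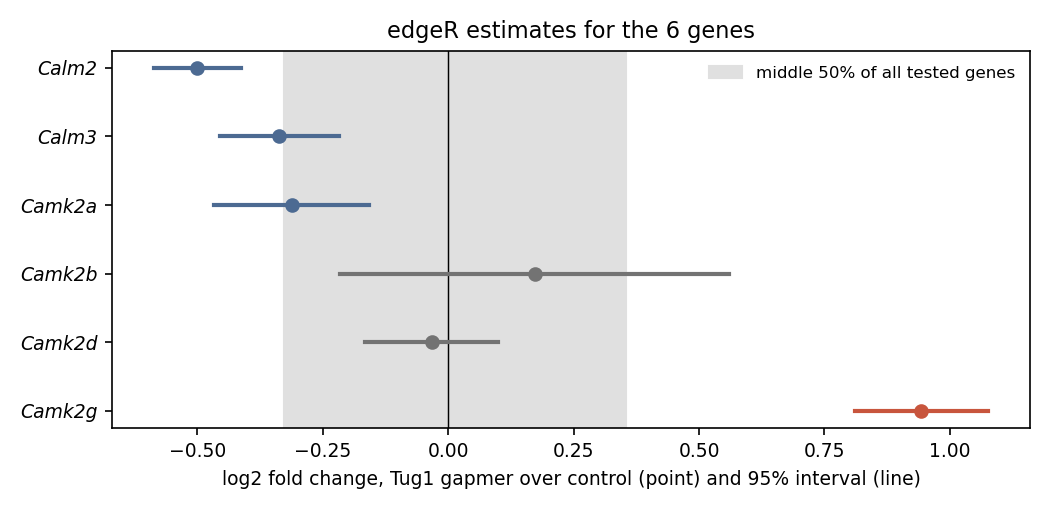
Log2 fold change of each gene, Tug1 gapmer over control (x axis), from edgeR (points) with its 95% interval (lines); red marks higher, blue lower and grey not past the threshold, and the band holds the middle 50% of all 14216 tested genes. Camk2g at 0.94 and Calm2 at -0.50 lie outside the band with their whole intervals.

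The summed Camk2 level was 164, 154 and 181 CPM in the controls (replicates 1 to 3) against 199, 188 and 188 CPM in the knockdown libraries (also 1 to 3). All knockdown sums were above all control sums, with means of 166 ± 13.8 and 192 ± 6.40 CPM (SD, n = 3), or 115% of control. This difference depended on the correction for gene length. With the length offset applied to each gene before summing, an alternative chosen after the data had been seen, the means were 180 ± 11.4 and 177 ± 7.30 CPM (SD, n = 3) and the groups overlapped.

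The composition of the family shifted more clearly than its sum. Camk2g held 22.1% of the Camk2 counts in controls and 37.0% after knockdown, a gain of 14.9 percentage points. By library its share was 21.9%, 22.5% and 22.0% in controls and 36.7%, 37.3% and 37.1% after knockdown. The exact (Clopper-Pearson) 95% interval was 20.7% to 24.4% for the highest control library and 34.9% to 38.5% for the lowest knockdown library, covering counting error only. Camk2d went from 52.1% ± 1.44 to 44.3% ± 0.647 of the counts and Camk2a from 23.2% ± 0.705 to 16.3% ± 0.542 (SD, n = 3), both without overlap. Camk2b held 2.49% ± 0.468 and 2.44% ± 0.298 (SD, n = 3), a difference within the spread between libraries.

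Within a library, the ratio of Camk2g to Camk2d does not depend on scaling between libraries. Its log2 value was -1.29, -1.17 and -1.25 in the controls (replicates 1 to 3) against -0.29, -0.23 and -0.27 in the knockdown libraries (also 1 to 3). Every knockdown library lay above every control library, and the gap was several times the range inside either group. The mean difference was 0.97, with an exact permutation p of 0.1 (two-sided), again the smallest that 3 against 3 libraries allow. Reads were counted per gene, so the splice forms of each subunit were not told apart. RefSeq lists 28 transcripts for Camk2d and 38 for Camk2g.

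**Figure D3:**
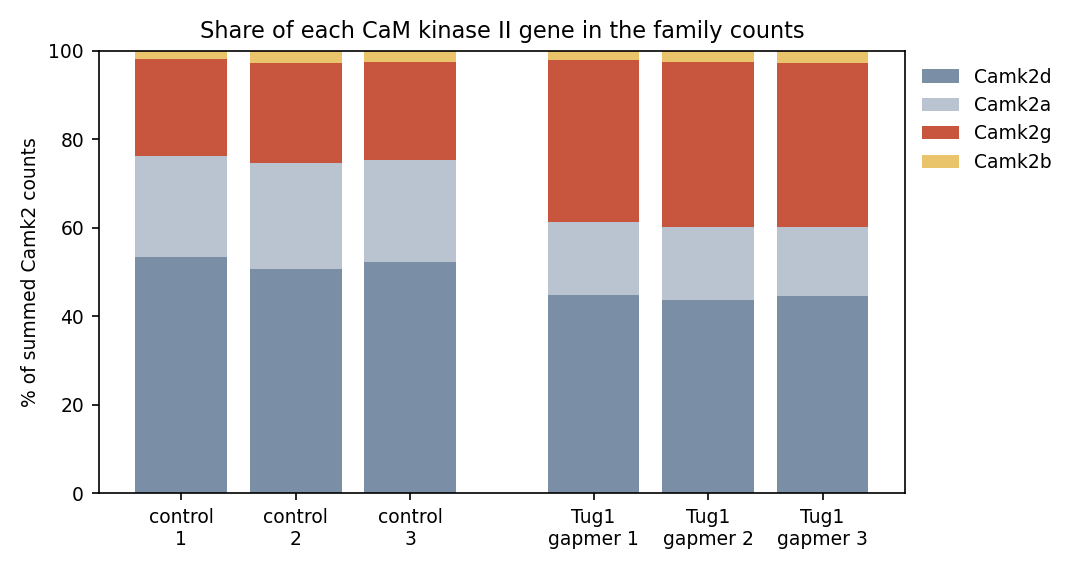
Share of each CaM kinase II gene in the summed Camk2 counts of each library (y axis, percent; bars sum to 100%), for the 3 control and the 3 Tug1 gapmer libraries. The Camk2g segment takes 21.9% to 22.5% of the counts in controls and 36.7% to 37.3% after knockdown, while Camk2d and Camk2a take less.

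Since Camk2g was the 1 gene of the family that rose, the stretch in front of its annotated start is shown. It is chr15:3553106-3553237, plus strand, 132 bases of the rat assembly GRCr8 from RefSeq that end before the most upstream annotated start of the gene, with capitals marking the letters GGGCGG or their reverse complement (a GC box, the site of Sp-family factors).
Camk2g: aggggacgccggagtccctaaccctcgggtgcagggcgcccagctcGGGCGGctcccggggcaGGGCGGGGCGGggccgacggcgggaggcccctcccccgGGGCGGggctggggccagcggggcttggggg
In the 250 bases before the start site given in the promoter table, GGGCGG was searched on both strands, counting overlapping matches separately, and occurred 7 times for Camk2g, 5 times for Camk2b, 3 times for Camk2d and 0 times for Camk2a. These windows lie partly or wholly inside the annotated genes: 132 bases for Camk2g, 73 for Camk2b, 23 for Camk2d and 0 for Camk2a come before the most upstream annotated start, and 4 of the 7 Camk2g matches are in the stretch shown. Of all 33469 promoters of that length 30.5% held at least 1 match, 7.41% held 3 or more, 1.72% held 5 or more and 0.347% held 7 or more. GC content of these windows was 80.8% for Camk2g, 80.4% for Camk2b, 75.2% for Camk2d and 60.4% for Camk2a, with a median of 51.2% over all promoters. The GC content was at or above that of 99.2% of promoters for Camk2g, 99.1% for Camk2b, 96.95% for Camk2d and 76.5% for Camk2a. The windows of Camk2b and Camk2d, which did not pass the test, also held GC boxes. The letters TATAAA and CCAAT were found in none of these 4 windows, and were present in 12.9% and 34.0% of all promoters. The E-box letters CANNTG, present in 65.5% of promoters, occurred 2 times in the window of Camk2a and not in the other 3, and TGACG, the core of the cAMP response element, present in 18.2%, also occurred 2 times for Camk2a only. These matches describe the sequence and were not tied to binding data.

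Genes whose profile over the 6 libraries was most like that of a member were taken as those with the smallest root mean square difference in centred log2 CPM, among 9074 candidates at a mean of at least 10 CPM. For Calm2 these were Zhx3 (0.0186), Rest (0.0200) and Ran (0.0212), with log2 fold changes of -0.49, -0.52 and -0.54, where the median difference over all candidates was 0.272. Rest encodes a repressor of neuronal genes and Ran the GTPase of nuclear transport. For Camk2d, the member of its family with the most counts, they were Ankrd29 (0.0237), Nup58 (0.0291) and Tiprl (0.0292), which like Camk2d did not pass the test. For Camk2g, added after its values were seen, they were Atp2b4 (0.0288), a plasma membrane calcium pump gene, Dab2 (0.0354) and Kdm5b (0.0391), with log2 fold changes of 0.93, 0.96 and 0.92. Over 6 libraries in 2 groups such likeness is a description, and the genes share libraries and scaling.

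The genes around calmodulin and its kinase were compared next, in 7 lists, of which 6 are described. Together 69 of 98 tested genes passed the threshold (70.4%, beside 61.7% of all genes), 46 higher and 23 lower, and the median of their log2 fold changes was 0.14, beside 0.00 for all tested genes. With the length offset the split was 33 higher and 27 lower. The 2 endogenous inhibitors of CaM kinase II, small proteins that block its catalytic site, both fell. Camk2n1 was at 21.8, 24.6 and 18.5 CPM in the controls (replicates 1 to 3) against 13.9, 11.0 and 12.8 CPM in the knockdown libraries (also 1 to 3), with no overlap. The fitted log2 fold change was -0.78, with SE 0.112 and an edgeR adjusted p of 2.31e-06. Camk2n2 was lower at 6.75, 8.75 and 7.17 CPM in controls and 5.51, 6.14 and 4.91 CPM after knockdown. This gave a fitted log2 fold change of -0.45, with SE 0.153 and an edgeR adjusted p of 0.0137. The call on Camk2n2 was lost without control replicate 2 (-0.34), without knockdown replicate 3 (-0.37) and with the length offset (-0.29), with edgeR adjusted p-values from 0.0660 to 0.0950.

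In the list of CaM kinase II inhibitors, phosphatases and anchors as a whole, 5 genes were higher and 6 lower among 17 tested, and the median log2 fold change was 0.00. That is 64.7% called, beside 61.7% of all tested genes. Cask, a membrane scaffold with a kinase domain of the same fold, rose from 14.9 ± 0.210 to 26.5 ± 0.419 CPM (SD, n = 3), or 0.83 as log2 fold change. It was at 0.45 with the length offset and a block for replicate number. Ppm1e, a phosphatase that removes the activating phosphate from CaM kinases, rose by 0.67 (0.43 with the length offset). Its relative Ppm1f was at 128 CPM in both groups (log2 fold change 0.00, edgeR adjusted p 0.985). Sptbn4, a spectrin that anchors the kinase at membranes, fell, at a log2 fold change of -0.55. With the length offset 3 genes of this list were higher and 6 lower.

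Genes of other calmodulin-dependent kinases rose in most cases, 11 higher and 1 lower among 15 tested, with a median log2 fold change of 0.46. That is 80.0% called, beside 61.7% of all tested genes. The higher genes are not all separate kinases, since Phka1, Phka2, Phkb, Phkg1 and Phkg2 encode subunits of the same enzyme, phosphorylase kinase. Mylk4, a myosin light chain kinase family gene, went from 1.03 ± 0.583 to 5.05 ± 0.521 CPM (SD, n = 3). The fitted log2 fold change was 2.29, with SE 0.277 and an edgeR adjusted p of 1.99e-07. The phosphorylase kinase subunit genes Phka2 and Phka1, whose complex carries calmodulin as a built-in subunit, rose by 0.87 and 0.52. Dapk2, a death-associated kinase, rose by 0.58, a call lost without knockdown replicate 2 (0.45) and with the length offset (0.35). With that offset 9 genes of the list were higher and none lower, and the median was 0.29.

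The CaM kinase cascade runs from CaM kinase kinases to CaM kinases I and IV. Camkk2 rose by a log2 fold change of 0.40 (12.1 ± 0.579 to 15.9 ± 0.839 CPM, SD, n = 3), while Camkk1 was at 9.35 ± 0.558 and 9.29 ± 1.76 CPM (SD, n = 3; edgeR adjusted p 0.949). Camk1 fell, at a log2 fold change of -0.17, with an edgeR adjusted p of 0.0466, and lost that call in 11 of 16 alternatives, among them the fits without control replicate 1 (-0.19), control replicate 2 (-0.08), knockdown replicate 1 (-0.16), knockdown replicate 2 (-0.15) or knockdown replicate 3 (-0.18). Camk4 had no more than 3 counts in any library and was not tested.

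Enzymes other than protein kinases that calmodulin regulates were higher for 8 and lower for 2 of 13 tested genes, with a median log2 fold change of 0.37. That is 76.9% called, beside 61.7% of all tested genes. The list includes kinases of small molecules. Adcy3, an adenylyl cyclase, rose from 9.87 ± 1.22 to 20.0 ± 0.747 CPM (SD, n = 3), or 1.02 as log2 fold change. Pde1c, a calmodulin-stimulated phosphodiesterase that breaks down cyclic nucleotides, rose by 0.95. With the length offset Adcy3 was at 0.82 and Pde1c at 0.54. The calcineurin catalytic gene Ppp3cc rose by 0.53 and the NAD kinase gene Nadk by 0.48. The other calcineurin catalytic genes did not pass, with log2 fold changes of -0.14 for Ppp3ca and 0.08 for Ppp3cb. The 2 lower genes, named after their values were seen, were the calcineurin regulatory subunit gene Ppp3r1, from 217 ± 8.41 to 166 ± 9.45 CPM (SD, n = 3), and the inositol trisphosphate kinase gene Itpka, from 2.11 ± 0.546 to 0.370 ± 0.322 CPM (SD, n = 3).

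Among calmodulin-binding buffers and scaffolds 6 genes were higher and 5 lower of 17 tested, with a median log2 fold change of -0.01. That is 64.7% called, beside 61.7% of all tested genes. Marcksl1, a membrane protein that binds calmodulin and releases it on phosphorylation, fell from 68.8 ± 2.29 to 36.3 ± 3.26 CPM (SD, n = 3). Its log2 fold change was -0.92. The adducin gene Add3, the caldesmon gene Cald1 and the microtubule minus-end gene Camsap1 rose by 0.79, 0.60 and 0.54. With the length offset Add3 was at 0.58 and Camsap1 at 0.42, and with a block for replicate number added Cald1 was at 0.30. With the length offset the split was 4 higher and 6 lower.

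Of the substrates and downstream factors of CaM kinase II 10 were higher and 7 lower among 25 tested, with a median log2 fold change of -0.01. That is 68.0% called, beside 61.7% of all tested genes. With the length offset the balance turned to 6 higher and 10 lower and the median to -0.12. The channel genes Kcnd3 (1.07), Ryr1 (0.85) and Cacna1c (0.83) had the highest log2 fold changes among those named by the rule. With the length offset Ryr1 was at 0.61, and with a block for replicate number added Kcnd3 was at 0.73 and Cacna1c at 0.38. The immediate early gene Fos, which calcium signals induce, fell from 29.1 ± 1.42 to 10.1 ± 1.80 CPM (SD, n = 3), or -1.53 as log2 fold change. Other substrate genes, named after their values were seen, went both ways. The phospholamban gene Pln (-0.68), the calcium channel subunit gene Cacnb2 (-0.46) and Hdac7 (-0.27) fell. Hdac4 (0.51) and Hdac5 (0.49) rose, and Cacnb3 and Hdac9 did not pass. Ryr2, the heart ryanodine receptor and a main CaM kinase II target there, was at or under 3 counts in every library.

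A last list held 9 splicing factors, drawn up as factors that act on Camk2d pre-mRNA, and 5 were higher and 1 lower. That is 66.7% called, beside 61.7% of all tested genes. Whether they act on Camk2d in these cells was not tested. Rbfox2 rose from 127 ± 8.50 to 203 ± 7.87 CPM (SD, n = 3), or 0.68 as log2 fold change. Ptbp1, a repressor of tissue-specific exons, fell from 357 ± 17.1 to 253 ± 4.86 CPM (SD, n = 3), or -0.49 as log2 fold change. Rbfox1 (0.62) and Celf2 (0.41) also rose on the TMM scale. With the length offset Rbfox2 was at 0.34, Rbfox1 (0.07) lost its call and Celf2 was at -0.07 without one. With that offset 2 of the 9 were higher and 1 lower.

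**Figure D4:**
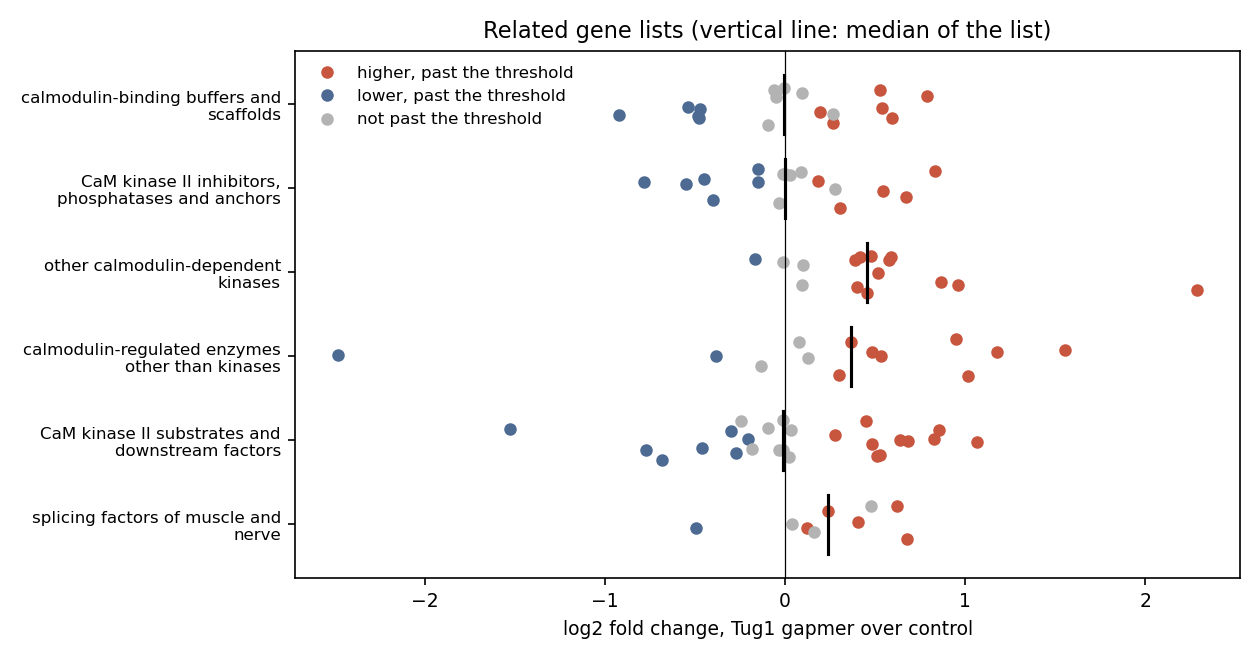
Log2 fold change, Tug1 gapmer over control (x axis), of the tested genes of 6 related lists (rows); each point is a gene, red higher and blue lower past the threshold, grey not past it, and the vertical line is the median of the list. The row of enzymes other than kinases leaves out protein kinases only. The row of splicing factors of muscle and nerve is the list drawn up for Camk2d pre-mRNA. Genes of calmodulin-dependent kinases other than CaM kinase II, some of which encode subunits of the same enzyme, have a median of 0.46. The substrates of CaM kinase II and its inhibitors, phosphatases and anchors have medians near 0.

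**Figure D5:**
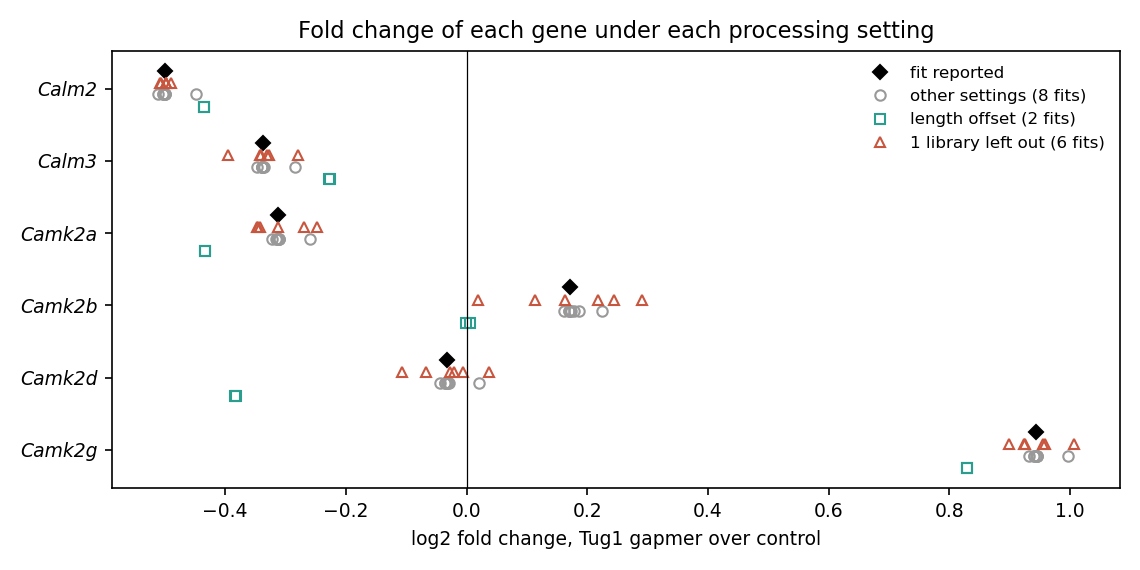
Log2 fold change, Tug1 gapmer over control (x axis), of the 6 genes in the fit reported (diamonds) and in 16 alternative fits (open symbols by kind). Camk2g, Calm2, Calm3 and Camk2a keep their side of 0 in all of them, while Camk2d moves from -0.03 to -0.38 with the length offset.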

How the data were processed

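Raw whole-number counts, 1 per gene symbol and library, were deposited for 6 libraries. Per the labels' protocols, poly-A selected, strand-specific libraries were prepared with an input of 500 ng RNA (integrity number of at least 9). FastQC 0.11.7, fastp 0.14.1 and STAR 2.5 are named in the submitters' processing notes, with no role. Counting tool, genome build, annotation, use of strand and handling of multi-mapping reads are not given in the sources used here. No column lay outside the 6 libraries. Replicate pairs differed by 2.15 to 3.55 times sampling noise (chi-square per degree of freedom). This does not tell separate cultures from technical repeats, and each library was counted as a sample.

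The test was run with edgeR 4.0.16 (R 4.3.3): expression filter (minimum count 10, total 15), TMM factors (0.979 to 1.02), quasi-likelihood test (two-sided, prior count 0.125) and Benjamini-Hochberg adjustment over all 14216 tested genes, with an adjusted p under 0.05 called changed. Values at or under 3 counts, covering counting error only, were taken as not detected. The scripts were tested on simulated counts. Sequences and spans came from RefSeq tables of GRCr8, which gave a span for 92.0% of tested genes. An annotated non-coding gene that overlaps Camk2b had at most 1 count per library.

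Alternatives were DESeq2 (1.42.0) size factors and Wald test, library totals, limma-voom (limma 3.58.1), other filters, a stricter threshold (0.01), a block for replicate number, a length offset (lowess span 0.3), and each library left out. Named genes were the 6 members, up to 4 called genes per list with the largest absolute change at 5 CPM or more in a group, and Camk2n1, Camk2n2, Camk1, Camk4, Camkk1 and Camkk2. Members and lists were chosen with earlier results of these data known. A list with genes that the rule would name is not reported here.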

Additional observations from a re-analysis of the deposited data

How the results depend on the processing

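Calm2, Calm3, Camk2a and Camk2g kept their direction and their call in each of 16 alternatives, with log2 fold changes of -0.51 to -0.44, -0.40 to -0.23, -0.43 to -0.25 and 0.83 to 1.01. Camk2d was called lower with the length offset (-0.38), also with the replicate block added (-0.38), and was positive without a call with library totals (0.020) and without control replicate 3 (0.038). Camk2b was at -8.65e-05 with the length offset. Leaving out each library gave -0.51 to -0.49 for Calm2, -0.40 to -0.28 for Calm3, -0.35 to -0.25 for Camk2a, 0.02 to 0.29 for Camk2b, -0.11 to 0.04 for Camk2d and 0.90 to 1.01 for Camk2g. The log2 difference of the Calm2 and Calm3 sum was -0.46, and -0.41 with library totals and -0.39 with the length offset. That of the Camk2 sum was 0.20, and -0.027 with the length offset, and 0.15 to 0.27 with a library left out. Only the offset on the sums was an alternative chosen after seeing the data. By construction it lowers long genes that follow the overall length trend, which at the span of Camk2d was 0.35 (knockdown minus control, log2).

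Changed genes numbered 7353 to 8987 over all genes and 60 to 70 on the related lists, where the split of 46 higher and 23 lower became 33 and 27 with the length offset. With library totals the share of higher calls among all changed genes was 55.8% in place of 50.0%, and the median of all genes 0.06. Replicate numbers did not pair the libraries (correlations of deviations -0.00792, 0.0408 and 0.0368 for numbers 1 to 3, the best match for numbers 2 and 3 but not for 1). With the replicate block 8848 genes were called, and Camk2g was at 0.94.

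Of 40 other genes followed, 32 kept direction and call in all alternatives. Camkk1 was positive with library totals (0.0418), the length offset (0.0015) and without control replicate 2 (0.0299), knockdown replicate 1 (0.0746) or knockdown replicate 2 (0.0605). Nup58 was positive with library totals (0.0352) and without control replicate 3 (0.0464) or knockdown replicate 2 (0.0158), and Ankrd29 without control replicate 3 (0.0143). Celf2 was at -0.0652 with the length offset and -0.065 with the block added. With a library left out, Camkk1 ranged from -0.174 to 0.0746, Nup58 from -0.0677 to 0.0464 and Ankrd29 from -0.153 to 0.0143. For all of these, the cause was not tested. Among the 6 members Camk2b had the fewest counts, 42 to 67 per library, and Mylk4 had only 6, 21 and 13 in controls.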
